A study of Mus musculus with 8 samples.

Results

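Acadvl, Hadhb and Cox20 are 3 nuclear genes of mitochondrial oxidation listed with a difference in junction or intron usage between cultured mouse hepatocytes with and without a deletion in Srsf3, the gene of a splicing factor. They were taken by name from the authors' deposited tables, in which 638 genes are named in all. They were chosen by their listed change in junction usage between the groups, so the values below are a description and carry no test. One authors' deposited table lists local variations, which are sets of junctions that share an exon, and in it Acadvl had 6 variations, Cox20 had 2 and Hadhb had 1. The authors' deposited table of junction usage, which lists 498 events, held none of the 3 genes.

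Hepatocytes came from C57BL/6J mice with floxed Srsf3 alleles and were cultured and exposed to an adeno-associated virus, AAV, over 48 h. In the AAV-Cre group, written Cre beside values below (genotype Srsf3-KO, 4 libraries) the virus expressed Cre recombinase, which cuts out the floxed part of Srsf3. In the AAV-GFP group, written GFP (genotype Srsf3-flox, 4 libraries) it expressed green fluorescent protein, so both groups carried the floxed alleles and a virus. The labels do not say how many mice gave the cells or which promoter drove Cre. SRSF3 is an SR protein, a class of RNA-binding proteins that help the splicing machinery choose exons. The label held for Srsf3 itself: the authors' group PSI for the splice between its exons 1 and 2 was 0.998 (GFP) and 0.157 (Cre). PSI, percent spliced in, is the share (0 to 1) that a junction or a retained intron takes among all those of its variation. The files hold 1 PSI per group. Depth and the spread over libraries are therefore unknown, and no SD or n can be set beside a value. They hold no expression levels, so the hepatocyte identity could not be checked by markers. In bulk RNA, a PSI cannot tell a change in all cells from one in some of them, and fewer cells of a type and less RNA per cell cannot be told apart.

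Mitochondria in liver burn long-chain fatty acids by beta-oxidation, a cycle that shortens the chain and hands electrons to the respiratory chain. Acadvl encodes the very long-chain acyl-CoA dehydrogenase, which opens the cycle for long chains. Hadhb encodes the beta subunit of the mitochondrial trifunctional protein, which holds the thiolase that closes it. Cox20 encodes a helper protein for the maturation of a core subunit of cytochrome c oxidase, the last complex of the respiratory chain. Loss of any of these functions is known to cause mitochondrial disease in people.

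The 3 genes had 23 entries (a junction or an intron in 1 variation), of which 18 changed by at least 0.2 in PSI, 9 higher and 9 lower in AAV-Cre. In the whole authors' deposited table, the share was 22.3% of 6866 entries, and it was 54.1% of the 1464 entries outside 3 crowded windows of the genome (100 kb with 8 or more variations). Entries of a variation share 1 total, so a higher entry goes with a lower one, and the Acadvl introns were counted from both sides. The even split into higher and lower is therefore set by the measure. All 9 variations of the genes held a changed entry, as did 95.2% of the variations in the table, so nothing can be read from that count. The 5 entries below the threshold changed by at most 0.011, and the smallest change above it was 0.273, so no entry of these genes lay near the threshold. In Acadvl and Cox20 introns were read as retained. An unannotated junction listed under Acadvl was also higher in AAV-Cre, but its ends are those of an intron on the opposite strand. In Hadhb the usage moved from one 5' splice site to another.

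**Figure D1:**
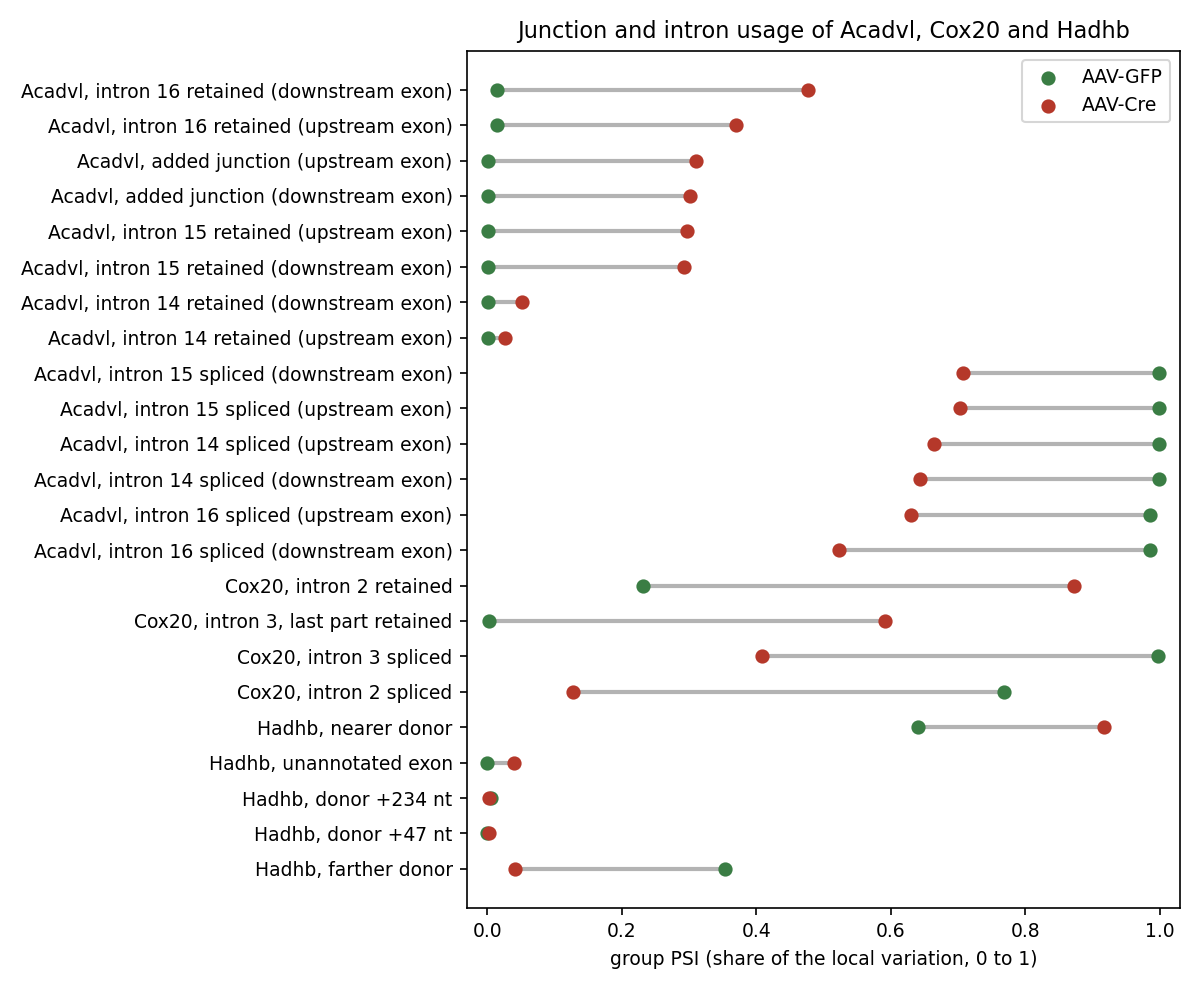
Group PSI (horizontal axis, 0 to 1) of the 23 entries of Acadvl, Cox20 and Hadhb, with green points for AAV-GFP and red points for AAV-Cre joined by a line. For Acadvl the exon from which the variation was read is given. Introns read as retained moved to the right and their spliced junctions to the left, up to 0.873 and down to 0.127 in Cox20.

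Acadvl (ENSMUSG00000018574.14) lies on the minus strand of chromosome 11 (70010183 to 70015411, mm10) and has 20 exons in its full-length transcript Acadvl-202. The 3 introns listed as retained, 14, 15 and 16, follow each other near the 3' end and lie between coding exons. They are 79, 89 and 84 nt long, close to the median of 89 nt over the 19 introns of the gene. Intron 16 (chromosome 11, 70010922 to 70011005) had an authors' group PSI of 0.014 (GFP) and 0.477 (Cre) when read from the downstream exon 17. Read from the upstream exon 16, the same intron went from 0.014 to 0.370 in the authors' group PSI. Intron 15 (70011079 to 70011167) had an authors' group PSI of 0.001 (GFP) from both sides, against 0.293 and 0.297 (Cre). Retention as read in AAV-Cre thus came out alike from both sides for intron 15 and differed by 0.112 in the change for intron 16. Over the 12 introns outside the crowded windows that the authors' deposited table gave from both sides, the median of that difference was 0.053 and the largest 0.188. These 12 include Acadvl introns 14, 15 and 16 themselves. All 12 had the same sign on both sides, which share their libraries. In some, such as that of Srrt (-0.008), the change was small and its sign says little.

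Intron 14 (70011266 to 70011344) did not follow the other two. Its retention had an authors' group PSI of 0.001 (GFP) and 0.051 or 0.026 (Cre), and the authors' deposited change was 0.011 or 0.001. Its normal junction nonetheless fell, from 0.999 to 0.644 read from exon 15 and from 0.999 to 0.664 read from exon 14 in the authors' group PSI. In the same variations an added junction was listed over a slightly longer stretch of 106 nt (70011246 to 70011351). The authors' group PSI of this junction was 0.001 (GFP) and 0.302 (Cre) from exon 15, and 0.001 and 0.311 from exon 14. The added junction is in no transcript of GENCODE vM21. Its stretch covers intron 14 with 20 nt of exon 15 and 7 nt of exon 14. The letters at its ends, given next, are those of an intron on the strand opposite to Acadvl, so its place in Acadvl RNA is not shown.

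The ends of these introns are shown because they tell the strand from which a junction comes. Nearly all introns begin with GT and end with AG on the strand of their own RNA. Each line gives 10 bases of exon and 20 of intron at a 5' splice site, or 20 of intron and 10 of exon at a 3' splice site, in mm10 and read 5' to 3'. Capitals mark the outermost 2 bases of the intron. Bases were read from the transcript Dvl2-207, which covers the place, and complemented for the minus strand.
Acadvl intron 14, chr11:70011266-70011344, minus, 5' site: aggctgtatgGTaagaggaaggaggatgag
Acadvl intron 14, 3' site: cgtcccccttctctccacAGgacaaaggaa
Acadvl intron 15, chr11:70011079-70011167, minus, 5' site: agctgagacgGTacctcatgggccggggcc
Acadvl intron 15, 3' site: actcttccatctcctctcAGgaggacagga
Acadvl intron 16, chr11:70010922-70011005, minus, 5' site: tggtgaactgGTgagtgagccttaaagcag
Acadvl intron 16, 3' site: tgtgactcttgtctcttcAGgcagtgcagg
Added junction, chr11:70011246-70011351, minus, first end: ctctgcaaggCTgtatggtaagaggaagga
Added junction, minus, last end: gacaaaggaaaggaactcACtgggctgggc
Added junction, chr11:70011246-70011351, plus, first end: gcccagcccaGTgagttcctttcctttgtc
Added junction, plus, last end: tccttcctcttaccatacAGccttgcagag
Introns 14, 15 and 16 begin with GT and end with AG on the minus strand, that of Acadvl. On that strand the added junction begins with CT and ends with AC. On the plus strand it begins with GT and ends with AG. The plus strand is that of Dvl2, which encodes a Dishevelled protein of Wnt signalling.

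Retained intron 16 would add 84 nt to the Acadvl reading frame, a multiple of 3, but holds an in-frame stop codon that starts at its base 13. Intron 14 has an in-frame stop at its base 43. Intron 15 has none, and its 89 nt are no multiple of 3, so it would shift the frame of the exons after it. These are properties of the letters, and no protein was measured.

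Dvl2 runs toward Acadvl from the other side (chromosome 11, 70000595 to 70012301, plus strand). Its short coding transcript ends at 70010111, before it meets Acadvl. The long transcript Dvl2-207 goes on through the last exons of Acadvl, with a last exon of 1425 nt (70010877 to 70012301). This exon holds 6 whole introns of Acadvl, among them 14, 15 and 16, and it holds the added junction. The other 3 of the 6 introns (11, 12 and 13) were not listed, and neither was any of the 11 introns that do not lie wholly within an exon of Dvl2-207. The exon before it (70009144 to 70010777) holds a further 2 introns of Acadvl, 18 and 19. Both of these appear in the authors' deposited table as junctions of Dvl2, on the plus strand.

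In that variation of Dvl2 there were 3 junctions. The junction of Dvl2 itself, from its exon 14 to exon 15 (intron 70008996 to 70009143), had an authors' group PSI of 0.044 (GFP) and 0.381 (Cre). The junction over Acadvl intron 19 (70010437 to 70010524) went from 0.580 to 0.477, and that over Acadvl intron 18 (70010601 to 70010697) from 0.376 to 0.145, in the authors' group PSI. The authors' deposited change was -0.221 for intron 18 but only -0.026 for intron 19, which did not count as changed and is smaller than the difference of its group PSI. The summed share of both Acadvl junctions therefore went from 0.956 to 0.622 while that of the Dvl2 junction was higher in AAV-Cre. These shares are taken over junctions of both genes, so they move with the RNA level of either. By the same group PSI, the ratio of intron 19 to intron 18 was 1.543 (GFP) and 3.29 (Cre). The libraries were made with a stranded kit, but how the strand was set in counting is not given in the sources used here. The listing did not keep the junctions over Acadvl introns 18 and 19 to the strand on which they are annotated. The part of Dvl2 RNA in the retention read for Acadvl was not tested.

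**Figure D2:**
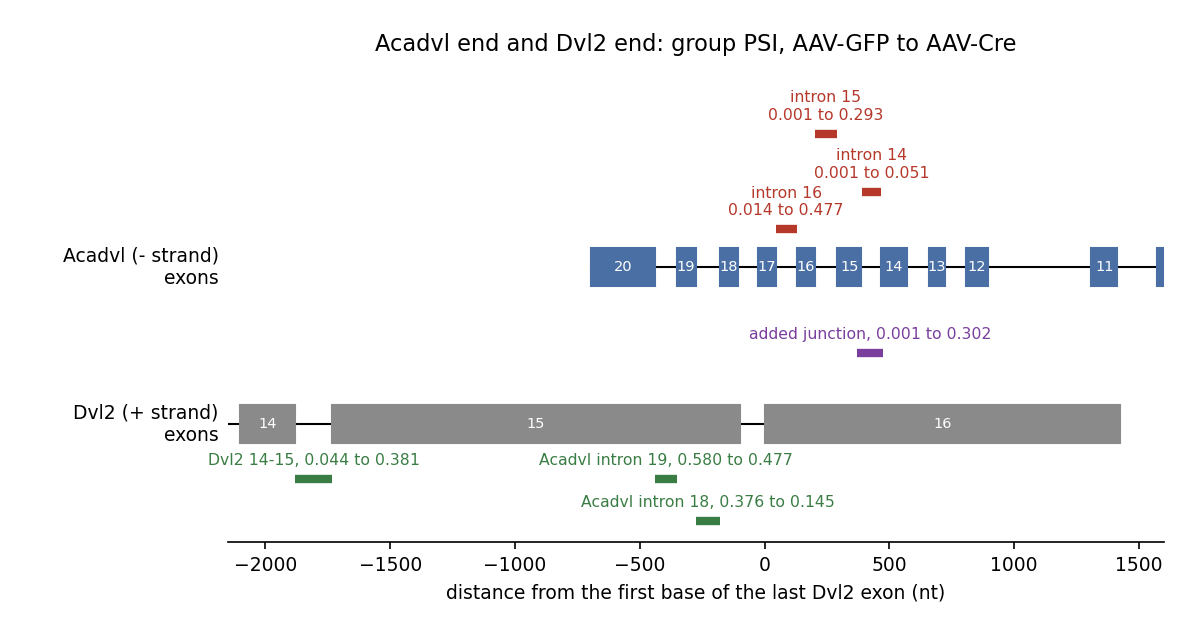
Map of the 3' end of Acadvl (blue exons, minus strand) over the 3' end of Dvl2-207 (grey exons, plus strand), with distance in nt from the first base of the last Dvl2 exon. Bars give the listed introns (red, read from the downstream exon), the added junction (purple) and the junctions listed under Dvl2 (green), each with its group PSI in AAV-GFP and AAV-Cre. All red and purple bars lie within the last exon of Dvl2.

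Hadhb (ENSMUSG00000059447.13) lies on the plus strand of chromosome 5 (30155248 to 30184593, mm10). Its single variation is made of the junctions that end at exon 2 (30163669 to 30163743), which start from 4 sites of exon 1 and from a short exon in between. The nearer 5' splice site of exon 1, after base 30155339, had an authors' group PSI of 0.640 (GFP) and 0.917 (Cre). The farther site, 43 nt downstream after base 30155382, had 0.354 (GFP) and 0.041 (Cre). The authors' deposited changes were 0.281 and -0.323. Both sites together took 0.994 of the junctions in AAV-GFP and 0.958 in AAV-Cre, so the difference was mostly an exchange between them.

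The remaining junctions of Hadhb were rare in both groups. A site only 4 nt beyond the farther one (after 30155386) had an authors' group PSI of 0.000 (GFP) and 0.002 (Cre), and a site after 30155573 had 0.005 and 0.002. The short exon of 11 nt (30160038 to 30160048), which is in no GENCODE vM21 transcript, had an authors' group PSI of 0.000 (GFP) and 0.040 (Cre). The authors' deposited change for it was 0.002, well below the difference of these values, so this entry did not count as changed.

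Both main sites are annotated: 4 of the 9 Hadhb transcripts use the nearer site and 1, Hadhb-203, the farther one. They are shown with capitals on the first 2 bases after the end of the exon, in mm10, plus strand, read from the transcript Hadhb-202. That transcript ends its exon 4 nt after the farther site, so no more bases could be read there.
Nearer site, chr5:30155330-30155359: ggactctaagGTgcggcagcgcgcttctcg
Farther site, chr5:30155357-30155386: tcggttttcttctgatttccccacagGCag
The nearer site, whose share was higher in AAV-Cre, is followed by GT. The farther site, whose share was lower, is followed by GC, a rarer form of 5' splice site. In the transcript Hadhb-201, which uses the nearer site, the coding sequence begins in exon 2 at base 30163677, 8 nt into that exon. With that start codon both sites differ only in the 5' untranslated region, by 43 nt, and leave the protein the same. The start codon annotated for Hadhb-203 is not given here.

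No exon of another gene overlaps the introns of this variation. Hadha, the gene of the alpha subunit of the same enzyme complex, starts 85 nt away on the other strand (first base 30155162) and runs in the opposite direction. Hadha itself was in neither table. Hadhb thus differs from Acadvl and Cox20, whose listed introns all overlap exons of a neighbour.

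**Figure D3:**
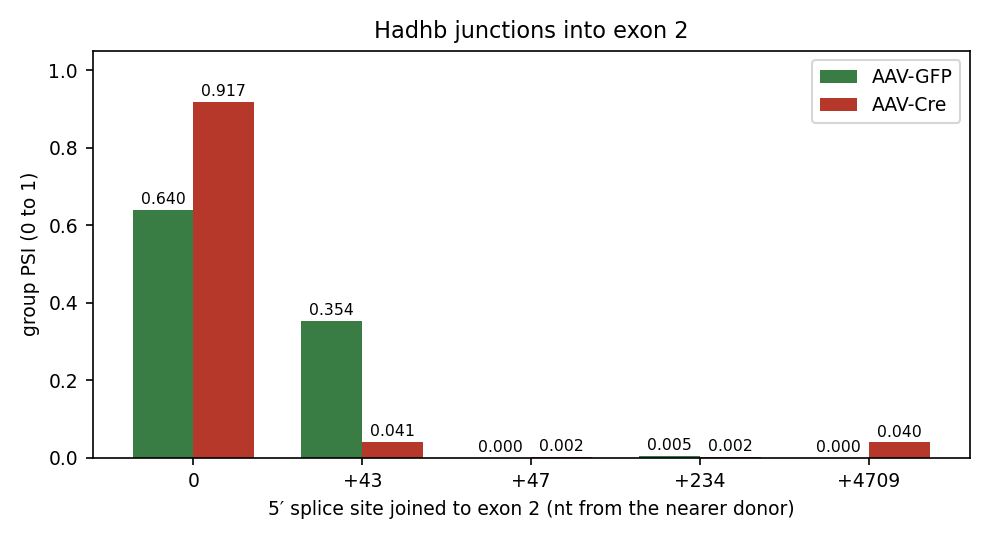
Group PSI (vertical axis, 0 to 1) of the 5 junctions into Hadhb exon 2, by the position of their 5' splice site in nt from the nearer site, with green bars for AAV-GFP and red bars for AAV-Cre. The site at 43 nt had 0.354 (GFP) and 0.041 (Cre), while the nearer site had 0.640 and 0.917.

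Cox20 (ENSMUSG00000026500.6) lies on the plus strand of chromosome 1 (178319130 to 178322693, mm10) and has 4 exons in its spliced transcript. Intron 2 (82 nt, 178321860 to 178321941) had an authors' group PSI of 0.232 as retained in AAV-GFP and 0.873 in AAV-Cre. Its spliced junction had the rest, 0.768 and 0.127. For intron 3 (475 nt, 178322006 to 178322480) the table read retention only over its last 145 nt (178322336 to 178322480). The authors' group PSI of that stretch was 0.003 (GFP) and 0.592 (Cre), and that of the spliced junction 0.997 and 0.408. Intron 2 was therefore already read as retained in part in AAV-GFP, and the last 145 nt of intron 3 hardly at all. In AAV-Cre the larger share was read as retained for intron 2 and for that stretch of intron 3. Retention of intron 3 as a whole was not read. From which strand the RNA behind these readings came was not tested.

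A Cox20 transcript of GENCODE vM21 that is classed as a retained intron keeps intron 2 and ends within intron 3 at 178322335. The listed stretch of intron 3 begins at the next base, and the table counts the bases before it as exon. The sites below are in mm10 on the plus strand, with the capitals and lengths as for Acadvl, and were read from the transcript Hnrnpu-205, complemented.
Cox20 intron 2, chr1:178321860-178321941, 5' site: ttggtgaccaGTgagtattttccttaaatt
Cox20 intron 2, 3' site: gaccatgctttttccaatAGgtagaattag
Cox20 intron 3, chr1:178322006-178322480, 5' site: taggatgctgGTatgtttgctggatattgc
Cox20 intron 3, 3' site: ttctttttcattcttacaAGgttccactgt
Both introns begin with GT and end with AG on the strand of Cox20. They are poor in G and C, at 29.3% in intron 2 and 33.9% in intron 3, against 57.1% to 59.6% in Acadvl introns 14 to 16. Neither length is a multiple of 3, and an in-frame stop codon starts at base 15 of intron 2 and at base 35 of intron 3. The stop in intron 3 lies before the stretch that was read as retained.

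Hnrnpu, which encodes a nuclear RNA-binding protein, lies opposite to Cox20 (chromosome 1, 178321108 to 178337797, minus strand). Its long coding transcript ends at 178324343, outside Cox20. The transcript Hnrnpu-205 starts beyond that end, at 178324171, and shares no base with the long coding transcript. Its last exon, from 178321108 to 178323195, holds introns 2 and 3 of Cox20 whole. The splice before that exon (intron 178323196 to 178323619) is also used by Hnrnpu transcripts annotated as targets of nonsense-mediated decay. The authors' deposited table lists a variation of this exon under Hnrnpu that holds 4 junctions, and 2 of them have the coordinates of Cox20 introns 2 and 3.

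In that variation the Hnrnpu junction over 178323196 to 178323619 had an authors' group PSI of 0.035 (GFP) and 0.656 (Cre). The junction over Cox20 intron 2 went from 0.502 to 0.059 and that over Cox20 intron 3 from 0.455 to 0.281 in the authors' group PSI. The authors' deposited change was -0.459 for intron 2 and -0.088 for intron 3, and the latter did not count as changed. A further junction over 178321459 to 178323133 had 0.007 and 0.002. Both Cox20 junctions together thus went from 0.957 to 0.340, as the Hnrnpu junction went up. The shares in this variation are taken over junctions of both genes, so they move with the RNA level of either. The ratio of both Cox20 junctions does not depend on the Hnrnpu junction: intron 3 over intron 2 was 0.906 (GFP) and 4.763 (Cre). Relative to the intron 3 junction, the intron 2 junction was thus lower in AAV-Cre. The part of Hnrnpu RNA in the retention read for Cox20 was not tested.

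**Figure D4:**
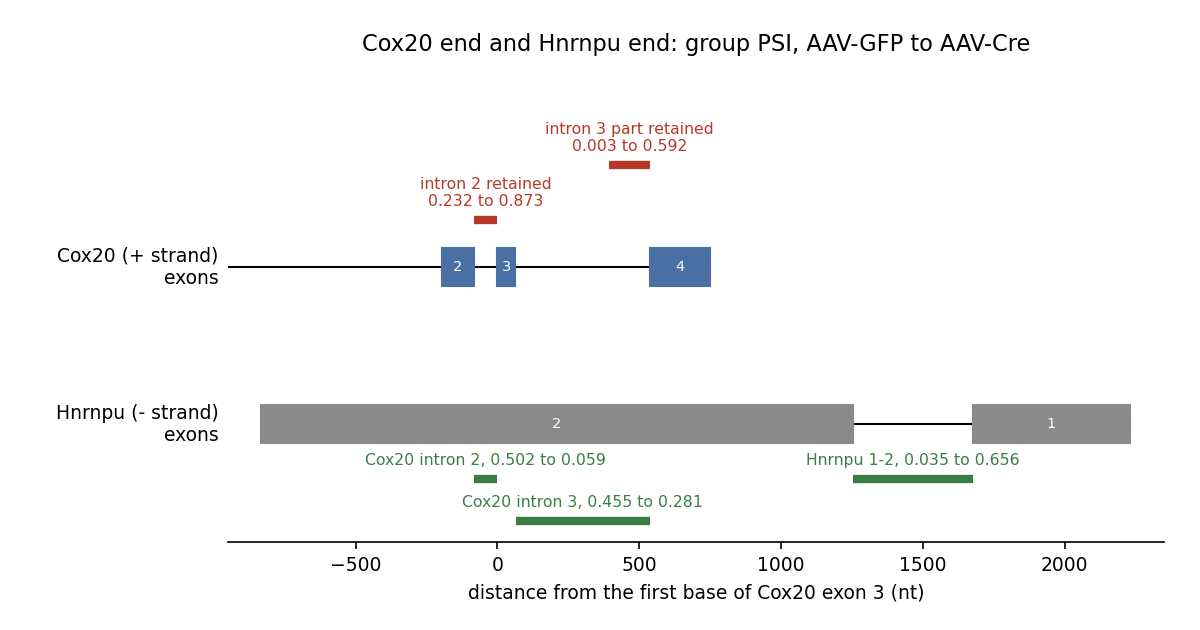
Map of the 3' end of Cox20 (blue exons, plus strand) over Hnrnpu-205 (grey exons, minus strand), with distance in nt from the first base of Cox20 exon 3. Red bars are intron 2 and the last part of intron 3, read as retained under Cox20. Green bars are the junctions listed under Hnrnpu. Each bar is given with its group PSI in AAV-GFP and AAV-Cre. Both red bars lie within exon 2 of Hnrnpu-205.

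Among the 120 introns that the authors' deposited table gave outside the crowded windows, taken once each, the listed Cox20 introns ranked 4 and 8 by their increase and Acadvl introns 16, 15 and 14 ranked 12, 33 and 74. The Acadvl introns, read from both sides, were ranked by the larger change (0.465, 0.279 and 0.011). At its other reading of 0.354, intron 16 would rank lower. By entry, 48.2% of 137 such intron entries were higher in AAV-Cre by at least 0.2 and 6.57% lower. For Acadvl and Cox20 it was 6 of 8 entries higher and none lower, a count that the choice of the genes fixes. An exon of another gene on the opposite strand overlapped 21 of the 120 introns (17.5%), among them all 5 of Acadvl and Cox20. The other 16 had a median change of 0.264, of which 11 were higher by at least 0.2, and the 99 introns with no such overlap had a median of 0.035, of which 42 were higher by at least 0.2. Junctions annotated as introns only on the opposite strand were listed in 38 of the 439 variations outside the crowded windows (8.66%), in 35 genes that include Dvl2 and Hnrnpu. In 12 of these 35 genes the gene that owns the intron was itself listed, as Acadvl and Cox20 were. The listing of a neighbour's junctions was thus not limited to these loci.

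**Figure D5:**
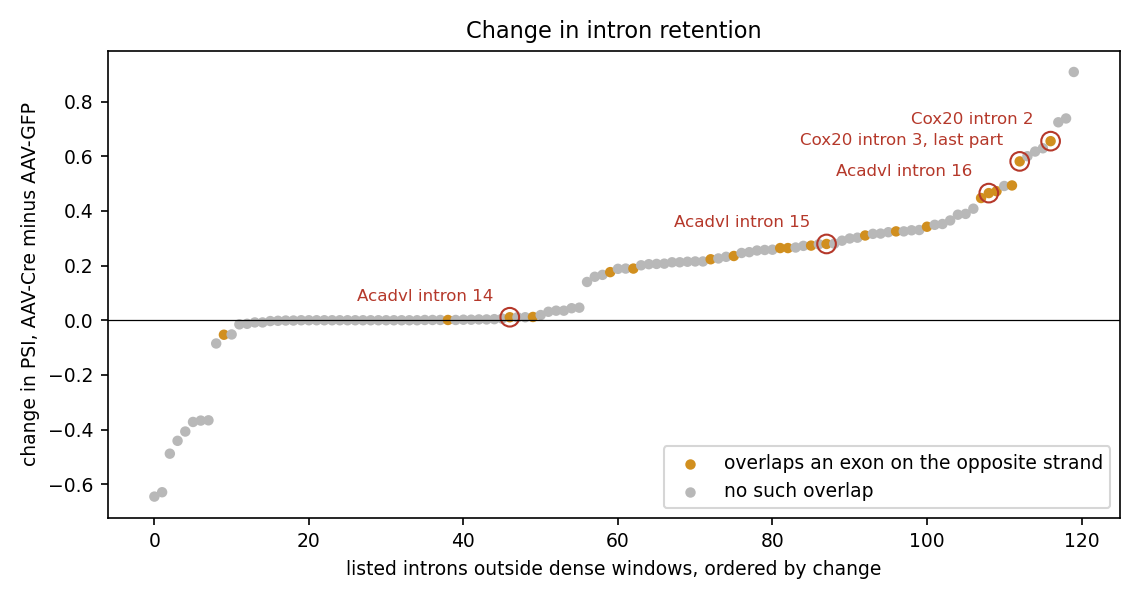
Change in PSI (AAV-Cre minus AAV-GFP, vertical axis) of the 120 listed introns outside the crowded windows, ordered by change along the horizontal axis. Orange points overlap an exon on the opposite strand, and circles mark Acadvl and Cox20. Of the circled introns, 4 are above 0.2 and Acadvl intron 14 is near 0.

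The other genes of the same pathways were counted from lists. The authors' deposited table of local variations names 354 genes, and how many genes could have been listed is unknown. The counts therefore do not show whether a pathway was listed more or less often than other genes. Of 42 genes of fatty acid oxidation, Acadvl and Hadhb were in that table. Of 41 genes of cytochrome c oxidase and its assembly, Cox20 was there, and of 5 genes of ketone body synthesis none was. Of 67 genes of the other respiratory chain complexes 2 were. Ndufs8, a subunit of complex I, had a junction over 3911747 to 3912709 on chromosome 19 with an authors' group PSI of 0.971 (GFP) and 0.572 (Cre). A shorter junction into the same exon went from 0.027 to 0.396 in the authors' group PSI. Atp5g1, a gene of the ATP synthase c subunit, had a junction over 96075034 to 96075626 on chromosome 11 that went from 0.458 to 0.209, and one over 96075034 to 96075556 that went from 0.541 to 0.775, in the authors' group PSI. Neither gene had an intron read as retained by 0.2 or more, nor an exon of another gene under these junctions.

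By junction usage, 11.4% of all 498 events in the authors' deposited table had a q-value of at most 0.05 with a change of at least 0.1. In these lists only 1 gene did, Ndufa11 of complex I, with a change of -0.175 at a 3' splice site and q = 0.00923 in that authors' deposited table. Eci2, an enoyl-CoA isomerase of fatty acid oxidation (0.164, q = 0.401), Cox4i1 (-0.0927, q = 0.175) and Cox7a2l (-0.0182, q = 0.456) were in the authors' deposited table but did not pass. Ndufv3 (-0.193, q = 0.584), Atp5j (-0.145, q = 0.396) and Sdhb (-0.0657, q = 0.376), of complex I, ATP synthase and complex II, missed the threshold as well, by the authors' deposited table. Dvl2 and Hnrnpu had no event there. None of 8 hepatocyte markers was in either table, and of 18 markers of other liver cells Cd68 of macrophages was, with a cassette exon change of -0.106 and q = 0.0178 by junction usage in that authors' deposited table. A junction of Cd68 also went from 0.975 to 0.779 among the local variations, with a change of -0.202 in the authors' deposited table.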

How the data were processed

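The first deposited table has the layout of VOILA, the report of MAJIQ, and per the file headers gives expected PSI by group (a fraction) with its expected change for each junction. The deposited change is AAV-GFP minus AAV-Cre, and its sign was turned. The other one, also deposited by the authors, comes from JUM, is limited to p below 0.05 and gives p-values, q-values and the change in PSI per the file headers. Per the submitters' processing notes, FastQC, STAR and the build mm10 were used. How MAJIQ and JUM were set, and their versions, is not stated in the labels. The labels give stranded mRNA libraries. The deposited number of junctions per variation is a count, per the file headers, and was used to tell introns from junctions. The deposited probability column was not used, since its values do not follow its name.

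Junction coordinates were turned into introns and compared with GENCODE vM21 (GRCm38, the assembly of mm10), from which exons, frames and sequences came. The genome itself was not used here. Entries were called changed at a change of at least 0.2. Windows of 100 kb with 8 or more variations were called crowded. The genes and lists were chosen with earlier results of these data known. Named genes were the 3 genes, list genes with a changed variation or event, genes that overlap them, and Srsf3. The listed but uncalled Eci2, Cox4i1, Cox7a2l, Ndufv3, Atp5j and Sdhb were named after their values were seen. No test was run. The reader was tested on simulated data, where all 200 introns and changes were recovered. Alternatives changed the thresholds, the side, the gene and the events counted. Computation used Python 3.11.15, pandas 2.3.3, numpy 2.4.6 and matplotlib 3.10.9.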

Additional observations from a re-analysis of the deposited data

How the results depend on the processing

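Taken as the difference of the group PSI in place of the deposited change, the 9 changes of the 3 genes tried moved by less than 0.1 and kept their sign. Read in its other variation, Acadvl intron 16 changed by 0.354 in place of 0.465. Read under Hnrnpu, the Cox20 junctions changed by -0.459 (intron 2) and -0.088 (intron 3) in place of -0.655 and -0.581. The shares there include junctions of Hnrnpu and no retained intron, and what made the changes differ was not tested. With a change of at least 0.3, 11 of the 23 entries counted as changed, and 873 over all genes. At 0.1 it was 18 again, and with each position taken once 12 of 16. Without the crowded windows 792 of 1464 entries over all genes were changed, where fewer entries were counted. At p in place of q, 321 junction usage events passed in place of 57. The listed events were limited to p below 0.05 beforehand, so there only the change of at least 0.1 selected among them. No paired analysis was possible because the tables give 1 value per group, and for the same reason no library could be left out. The depth behind the values is unknown.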
